A study of Mus musculus with 8 samples.

Results

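The genes described are 9 genes known from cerebellar granule neurons, namely Gabra6, Grm4, Cbln1, Cbln3, Fat2, En2, Zic1, Zic2 and Zic5, out of 19505 genes with a named row on the array. Each had a single row. They were chosen by their measured values, because they stood high on 2 arrays, replicate 2 of water with the tail suspension test (TST) and replicate 1 of water without it, so their levels there are given as a description, with no test. The study measured brain RNA of male ICR mice, an outbred strain, bought at 8 weeks of age and kept for 1 week before the experiments. There were 4 groups with 2 arrays each, all after 7 days of dosing: water with TST, rosemary extract (RE) at 10 mg/kg with TST (low dose), RE at a higher dose with TST (high dose), and water without TST. For the high dose the titles state 100 mg/kg, whereas the source field states 50 mg/kg. The TST suspends a mouse by the tail as a short stressor and records how long it stays immobile. The tissue is named limbic system in some label fields and hippocampus in another, and no label names cerebellum. Groups follow the titles; elsewhere the labels use positive control for the mice without TST and negative control for those given water before TST. The labels assign 7 mice to each group and do not say whether a sample is a single mouse or a pool, so a p-value reflects only how these samples vary, which may be technical. Values are the deposited log2 values of robust multichip averaging (RMA), 1 log2 unit being a doubling on that scale.

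Granule neurons are the small excitatory neurons of the cerebellar granule layer. Their axons, the parallel fibres, form synapses on the dendrites of Purkinje cells, and they receive inhibition from Golgi cells through GABA-A receptors. Gabra6 encodes the GABA-A receptor alpha6 subunit, long used as a marker of mature granule neurons. Grm4 encodes a presynaptic metabotropic glutamate receptor of parallel fibres. Cbln1 is a secreted synaptic organiser that links neurexin on the parallel fibre to the glutamate receptor family member GluD2 on the Purkinje cell, and Cbln3 is its granule cell partner, secreted in complex with it. Fat2 is a giant atypical cadherin found on parallel fibres. En2 is a homeobox transcription factor of midbrain and hindbrain patterning, and Zic1, Zic2 and Zic5 are zinc finger transcription factors of the neural tube, with Zic1 and Zic2 active in granule cell precursors. Zic genes are also known from other places, such as the septum and the meninges, and Grm4 from forebrain regions.

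Nuclear factor I (NFI) is a known regulator of Gabra6 in granule neurons. The members were chosen as high on the same arrays, so no shared regulation is read from their promoters. The promoter windows of Gabra6 and Cbln3, the pair of members with the largest measured excess, are shown. They come from RefSeq, build GRCm38.p6, cover 250 bases before to 50 after the annotated start, and are written 5′ to 3′ on the gene's strand, with partial NFI sites (TTGGC or its reverse complement GCCAA) in capitals. Gabra6 lies on the minus strand at chr11:42321023-42321322 and Cbln3 on the minus strand at chr14:55884207-55884506.
Gabra6: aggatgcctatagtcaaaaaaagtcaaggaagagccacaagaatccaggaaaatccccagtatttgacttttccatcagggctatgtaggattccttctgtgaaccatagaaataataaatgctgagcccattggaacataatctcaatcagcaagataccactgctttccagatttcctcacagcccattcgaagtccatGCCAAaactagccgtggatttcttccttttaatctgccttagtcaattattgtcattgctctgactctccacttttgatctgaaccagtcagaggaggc
Cbln3: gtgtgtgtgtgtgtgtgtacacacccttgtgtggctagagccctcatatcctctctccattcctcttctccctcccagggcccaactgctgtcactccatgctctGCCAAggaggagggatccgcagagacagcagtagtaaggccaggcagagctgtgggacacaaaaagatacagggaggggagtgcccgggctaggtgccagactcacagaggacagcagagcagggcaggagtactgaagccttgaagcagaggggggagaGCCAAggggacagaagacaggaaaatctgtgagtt
Gabra6 has 1 such site and Cbln3 has 2. Of 32851 promoter windows of this length in the table, 46.7% hold the site on either strand. Of the 5 members with a window (Gabra6, Cbln3, Fat2, Zic1 and Zic5), 4 hold the site and Fat2 does not. The motif CAGCAGG (reverse complement CCTGCTG), known as a core of the ZIC binding motif, was in 10.5% of all windows and, among the members, in that of Fat2. The NFI and ZIC letters searched share no overlapping match in these windows. GC content was 42% in the Gabra6 window and 57% in that of Cbln3, against a median of 52.7% over all windows. It was 43.7% for Fat2, 65.3% for Zic1 and 62.7% for Zic5.

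As background on the arrays, water with TST replicate 2 correlated with the others at 0.967 to 0.978 over all 22206 rows, and the other 7 correlated among themselves at 0.983 to 0.993. Array medians lay between 7.45 and 7.51. The scale reaches 19.79, above the 16 bits of a scanner, and 1359 values exceed 16, so a log2 difference is one on the deposited scale.

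On every one of the 9 genes, water with TST replicate 2 was the highest array and water without TST replicate 1 the second highest. The remaining 6 arrays lay below both. Over all rows, 24.6% had water with TST replicate 2 above the other 6, 7.48% had both of these arrays above the other 6, and 0.329% had each of them above by over 1 log2 unit, which 8 of the 9 members did. Since the members were chosen for this pattern, nothing is read from these shares.

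**Figure D1:**
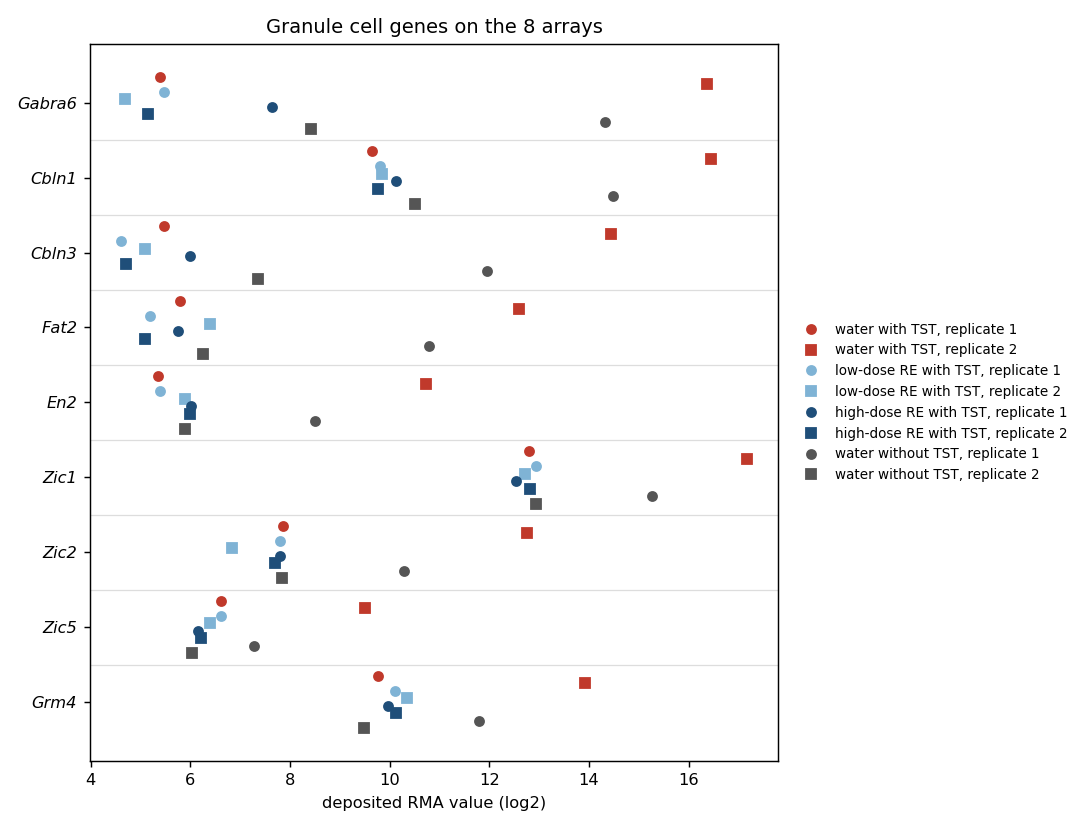
Deposited log2 value of each of the 9 genes (rows) on the 8 arrays; colour gives the group, circles are replicate 1 and squares replicate 2. Water with TST replicate 2 (red squares) is highest for every gene, from 9.51 for Zic5 to 17.17 for Zic1, and water without TST replicate 1 (grey circles) is next, from 7.27 to 15.26.

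Among the receptor genes, Gabra6 was at 16.37 on water with TST replicate 2 and at 14.31 on water without TST replicate 1. The remaining arrays had 5.40 (water with TST replicate 1), 5.48 and 4.69 (low-dose RE), 7.64 and 5.14 (high-dose RE) and 8.42 (water without TST replicate 2). The gap between the high arrays and the rest was thus 5.89 or more, while the 6 themselves spread over 3.73. Gabra6 stood at the 99.4th percentile of all rows on water with TST replicate 2 and the 97.1st on water without TST replicate 1, and between the 8.42nd and 59.3rd on the others. Grm4 was at 13.91 and 11.79 on the 2 high arrays, against 9.76 on water with TST replicate 1, 10.11 and 10.34 on low-dose RE, 9.96 and 10.12 on high-dose RE and 9.48 on water without TST replicate 2. It was therefore well within the measured range, at the 69.1st percentile or higher, on all 8 arrays.

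The synaptic organiser Cbln1 was at 16.44 and 14.47 on the 2 high arrays. The others had 9.64 on water with TST replicate 1, 9.81 and 9.85 on low-dose RE, 10.12 and 9.77 on high-dose RE and 10.51 on water without TST replicate 2. Its partner Cbln3 was at 14.43 and 11.95, against 5.48 on water with TST replicate 1, 4.61 and 5.09 on low-dose RE, 5.99 and 4.71 on high-dose RE and 7.35 on water without TST replicate 2. For both partners the 2 high arrays stood apart from the other 6, and water without TST replicate 2 was the highest of these 6. The cadherin Fat2 was at 12.59 and 10.79, against 5.79 on water with TST replicate 1, 5.18 and 6.39 on low-dose RE, 5.76 and 5.09 on high-dose RE and 6.25 on water without TST replicate 2.

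Of the transcription factors, Zic1 was at 17.17 and 15.26 on the 2 high arrays and between 12.53 and 12.94 on the other 6. These 6 values had an SD of 0.154, the smallest of the 9 genes. Zic2 was at 12.76 and 10.29, against 7.85 on water with TST replicate 1, 7.80 and 6.83 on low-dose RE, 7.80 and 7.69 on high-dose RE and 7.83 on water without TST replicate 2. Zic5 was the member nearest to the rest, at 9.51 and 7.27 against 6.03 to 6.61 on the other 6, so that water without TST replicate 1 exceeded the next array by 0.66. En2 was at 10.73 and 8.50, against 5.34 to 6.02.

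The genes gave a wide range of measured sizes for the excess over the other 6 arrays and a narrow range for the step between the 2 high arrays. Over the median of the other 6, the excess on water with TST replicate 2 ran from 3.21 for Zic5 to 10.93 for Gabra6 (median 4.96), and that on water without TST replicate 1 from 0.97 for Zic5 to 8.87 for Gabra6 (median 2.61). Over all 22206 rows the medians were 0.025 and -0.015. The base of Gabra6 was 5.44 and that of Cbln3 was 5.29. Those of Fat2 (5.775), En2 (5.895) and Zic5 (6.30) were also low. These are low values without a detection call, so the true excess of these genes may be larger than the measured one.

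By contrast, the step between the 2 high arrays, water with TST minus water without TST, was 1.80 for Fat2, 1.91 for Zic1, 1.97 for Cbln1, 2.06 for Gabra6, 2.12 for Grm4, 2.23 for En2, 2.24 for Zic5, 2.47 for Zic2 and 2.48 for Cbln3. The median was 2.12 with an SD over the 9 genes of 0.236, while the excess itself ranged over several log2 units. Receptors, organisers, the cadherin and the transcription factors were interspersed in this order. Over all rows the median difference was 0.04. Among the 73 rows with both high arrays over 1 log2 unit above the other 6, 8 of them members, it was 1.67. The quartiles of these rows were 1.29 and 2.11, and the step was positive in 73 of 73. The measured Purkinje and Bergmann cell genes ran from -1.35 to 2.46, with a median of 1.47. A step of this size was therefore not particular to the 9 genes.

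On the linear scale, with the median of the other 6 arrays subtracted, the level on water with TST replicate 2 was a median 5.42 times that on water without TST replicate 1. The ratio was 3.56 for Fat2, 4.04 for Cbln1, 4.18 for Gabra6, 4.38 for Zic1, 5.42 for En2, 5.62 for Cbln3, 5.76 for Grm4, 6.52 for Zic2 and 8.61 for Zic5. The base matters most for Zic5, whose ratio without subtraction was 4.72, and least for Gabra6, at 4.17 without it. They share each array's RNA and processing and are not replicates, and an array of pure cerebellum was not analysed here, so neither array can be given an absolute cerebellar share. In bulk RNA, a different number of cells of a type and a different amount of RNA per cell cannot be told apart.

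**Figure D2:**
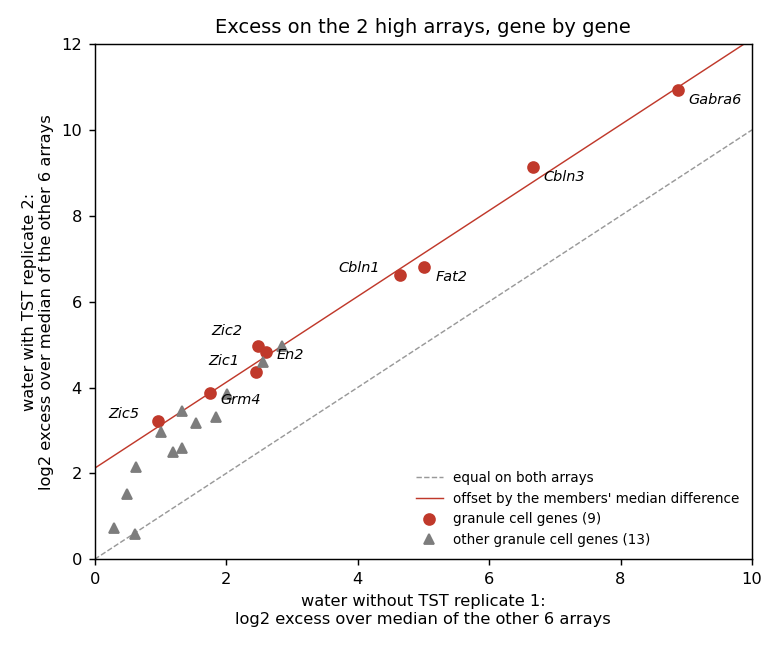
Log2 excess over the median of the other 6 arrays on water with TST replicate 2 (vertical) against water without TST replicate 1 (horizontal), for the 9 granule cell genes (red circles) and 13 other granule cell genes (grey triangles). The 9 genes lie close to the red line, offset from equality by their median difference of 2.12, from Zic5 at the lower left to Gabra6 at the upper right.

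The other 6 arrays were not uniform. Water without TST replicate 2 was the highest of them for 3 members, Gabra6 (8.42 against 7.64 on the next), Cbln1 (10.51 against 10.12) and Cbln3 (7.35 against 5.99), where high-dose RE replicate 1 came next. Relative to water with TST replicate 2 on the linear scale, Gabra6 on water without TST replicate 2 was 0.404%. For Zic1 it tied with low-dose RE replicate 1 at 12.94. The remaining members did not share this order. Water without TST replicate 2 was the lowest of all 8 arrays for Grm4 and Zic5, and Fat2 was highest of the 6 on low-dose RE replicate 2 (6.39 against 6.25 on water without TST replicate 2). Each member was also correlated with the mean of the other 8 over these 6 arrays alone, as a description. The value was 0.932 for Cbln1, 0.931 for Cbln3 and 0.867 for Gabra6. It was 0.361 for Fat2, 0.265 for En2, 0.207 for Zic2, -0.088 for Zic1, -0.760 for Zic5 and -0.811 for Grm4. Below the 2 high arrays, Gabra6, Cbln1 and Cbln3 therefore shared the top of the order. The 9 genes as a whole did not agree on an order of the arrays.

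A further list of 14 granule cell genes, 13 of them measured, had both high arrays above the other 6 in 13 of 13. That count is at any distance, at which 7.48% of all rows passed. Both arrays were above by over 1 log2 unit in 6 of 13, against 0.329% of all rows. Kcnk9 on water without TST replicate 1 was above by only 0.09. The list was drawn up with earlier results of these data known, so nothing is read from these shares. The excess was smaller than for the 9 genes, with a median of 2.97 on water with TST replicate 2 and 1.33 on water without TST replicate 1. Chn2, a Rac GTPase-activating protein known as beta2-chimaerin, was at 16.26 and 14.14 against 10.99 to 11.46. Mab21l1, a developmental gene of granule cell precursors, was at 10.94 and 8.89 against 6.05 to 6.68. Gabrd, the GABA-A delta subunit that pairs with alpha6 in granule neurons, differed little, at 8.17 and 8.20 against 6.65 to 7.87. The difference between the 2 high arrays ran from -0.03 for Gabrd to 2.12 for Chn2, with a median of 1.51 and an SD of 0.656.

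The family relatives of the members mostly did not share the pattern. All 4 measured Gabra6 relatives (Gabra2, Gabra3, Gabra4 and Gabra5) were lowest on water with TST replicate 2, where 22.2% of all rows lay below the other 6 arrays. Gabra5, a hippocampal alpha subunit, was at 10.99 there and at 13.70 on water without TST replicate 1, against 13.93 to 14.53 on the rest. Cbln2 and Cbln4 were also lowest on water with TST replicate 2, Cbln2 at 7.86 against 9.33 to 10.20. Among the cadherin relatives Fat3 and Fat4 were lowest there, while Fat1 was high on both arrays, at 12.65 and 11.08 against 9.29 to 9.97. The other engrailed gene, En1, was at 7.14 and 6.54, against 6.51 to 7.16. Zic4, which neighbours Zic1 in the genome, was at 6.32 and 5.68 against 5.38 to 5.51. Of 5 measured Grm4 relatives, 4 were below the other 6 on water with TST replicate 2, with Grm5 at 10.04 against 12.25 to 12.88, and Grm6 was above them at 7.83 against 7.09 to 7.66.

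The cerebellin receptor genes that were measured differed less between the arrays than the ligand. Nrxn3, a neurexin, was at 14.43 and 13.97 on the high arrays against 13.32 to 13.75, and Nrxn2 at 10.12 and 9.99 against 9.62 to 9.92. Grid1, the GluD1 gene, was lower there, at 7.37 and 7.74 against 7.91 to 8.76. Gabrb2, a beta subunit that granule neurons share with many others, was at 15.41 and 15.27 against 14.83 to 15.19.

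Markers of other cells were set beside these values on the same arrays. Of 9 measured Purkinje and Bergmann cell genes, 7 had both high arrays above the other 6. Pcp2, a Purkinje cell marker with the largest excess of this list, was at 15.29 and 12.87 against 6.99 to 8.84. The high values were thus not limited to granule cell genes. The exceptions in the list were Foxp2, at 7.90 and 9.25 against 8.53 to 9.66, and Rora, at 14.03 and 13.15 against 12.30 to 13.56. Of 8 Hox genes, which mark the hindbrain behind the cerebellum, 2 had both high arrays above the other 6, with excesses between -0.29 and 0.665 on water with TST replicate 2. Midbrain markers had both above the rest in 0 of 6. Over all rows, 7.48% had both above. Some of these genes were low on all 8 arrays, with no detection call, such as Hoxa5 (3.51 to 4.19) and the midbrain gene Foxa1 (3.35 to 4.24). Others were higher, such as Hoxa4 (6.66 to 7.43) and Th (6.42 to 8.65). The low rows cannot show whether hindbrain or midbrain tissue differed between the arrays. Meningeal markers, relevant to the Zic genes, averaged 0.29 and 0.62 above their base on the high arrays and 0.56 on water with TST replicate 1. Of 10 markers of forebrain excitatory neurons, 9 lay below the other 6 arrays on water with TST replicate 2, where 22.2% of all rows did. On water without TST replicate 1, 5 of them lay below, where 15.0% of all rows did. Of 5 unipolar brush and Golgi cell genes, 1 had both high arrays above the rest. It was the glycine transporter gene Slc6a5 of Golgi cells, at 10.11 and 6.90 against 5.86 to 6.59. On water with TST replicate 2 alone, 3 of the 5 lay above the other 6 arrays and 2 below. Over all rows, 24.6% lay above and 22.2% below there, and nothing is read from so few genes. Eomes, of unipolar brush cells, was at 7.66 there and at 5.12 on water without TST replicate 1, against 4.14 to 5.12. Striatal markers averaged -1.18 relative to their base on water with TST replicate 2 and 1.87 on water without TST replicate 2, the highest of the other 6 arrays for Gabra6, Cbln1 and Cbln3. Camk2a, the forebrain kinase, was at 14.52 on water with TST replicate 2 and 17.54 on water without TST replicate 1, against 17.50 to 18.11. Not every forebrain marker was low on water with TST replicate 2: Nptx1, a neuronal pentraxin, was at 11.47 there, against 9.78 to 10.88 on the other 6 arrays. What part these levels have in the members' values was not tested.

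**Figure D3:**
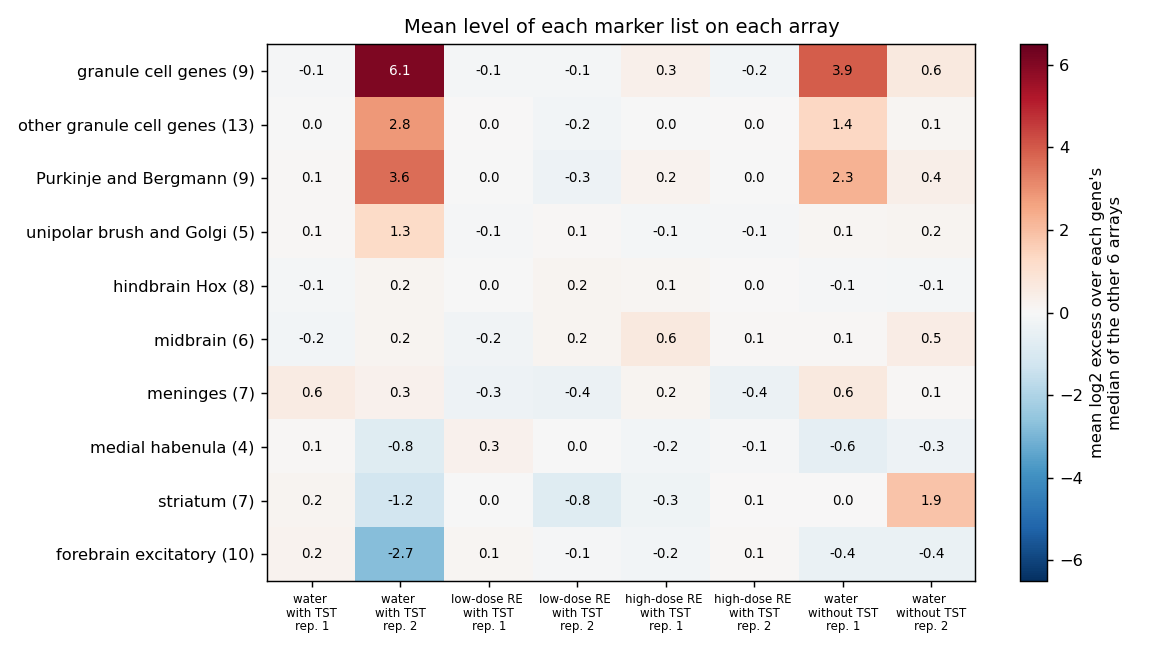
Mean log2 excess of each marker list (rows, number of measured genes in parentheses) over each gene's median of the other 6 arrays, on each of the 8 arrays (columns). The 9 granule cell genes reach 6.1 on water with TST replicate 2 and 3.9 on water without TST replicate 1, with Purkinje and Bergmann genes next at 3.6 and 2.3; forebrain excitatory markers are at -2.7 on water with TST replicate 2.

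The genes whose pattern over the 8 arrays was most like the mean of the 9 were sought among 816 other named genes that ranged over at least 2 log2 units, predicted loci left out. Because the arrays fall into 2 high and 6 low ones, Pearson's r here mostly measures that split, and it is given as a description. The 10 closest were Arhgef33 (r = 0.999), Car8 (0.998), Trmt9b and Dao (0.996 each), Zfp521 (0.996), Pcp2 (0.994), Ppp1r17 (0.993), Il20rb (0.993), Chn2 (0.992) and Gria4 (0.987). Among them, Car8, Pcp2 and Ppp1r17 are Purkinje cell markers, Dao, D-amino acid oxidase, is a glial enzyme of the hindbrain, and Chn2 is in the other granule cell list. Arhgef33, a guanine nucleotide exchange factor, was at 13.75 and 11.19 on the high arrays against 6.07 to 7.25. Car8 was at 16.03 and 13.88 against 9.19 to 10.03. Their differences between the 2 high arrays were 2.56 and 2.15.

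Between groups, the study asked what the stressor changed and what the extract changed under it. Each of the first 3 comparisons holds at least 1 of the 2 high arrays, which chose the members, so the group differences are given with their standard error (SE) from limma, as a description. Against water without TST, water with TST differed by -0.48 (SE 3.13) for Gabra6, 0.55 (SE 1.94) for Cbln1 and 1.41 (SE 0.804) for Zic5. The median of the 9 was 0.84, and 8 of 9 were higher. By limma, 0 of 9 passed the study's threshold of a fold above 1.2 with an unadjusted p under 0.05, which 2.55% of all rows passed, 1.29% higher and 1.26% lower. Each water group holds 1 high array, and the pair of groups overlapped for all 9 genes. Without the 2 high arrays, which leaves 1 array in each water group assumed to vary like the RE groups, the median was -0.46 and 3 of 9 passed, against 2.72% of all rows. These 3 were Gabra6 at -3.02, Cbln3 at -1.87 and Cbln1 at -0.87, so the direction for Cbln1 and Cbln3 turned. Leaving out water with TST replicate 1 alone, so that the array that chose the members stands alone for its group, put 9 of 9 past the threshold (16.7% of all rows), a count that restates the choice of the members; leaving out replicate 2 alone gave 2 of 9, Gabra6 and Cbln3, both lower, against 3.29%. The water arrays without TST moved the median too, to 2.465 without replicate 1 and -0.465 without replicate 2, with 0 of 9 past the threshold by limma in each.

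For the extract, each dose is set against the same 2 water arrays with TST. Low-dose RE was lower for all 9 genes, by a median of -2.99, with -5.80 (SE 3.13) for Gabra6, -5.105 (SE 2.50) for Cbln3 and -1.61 (SE 1.19) for Grm4. By limma, 0 of 9 passed the study's threshold, against 3.54% of all rows, 1.61% in the lower direction. High-dose RE was likewise lower for all 9, by a median of -2.56, with -4.495 (SE 3.13) for Gabra6, -4.605 (SE 2.50) for Cbln3 and -1.795 (SE 1.19) for Grm4. Here 1 of 9 passed, Zic5 at -1.88 (SE 0.804), against 3.17% of all rows, 1.67% of rows being higher and 1.51% lower. The call was lost (0 of 9) with the replicate block, in the fit of the 4 arrays compared, with a trended robust prior, without dim rows and in the analysis of variance. Zic5 was at 6.15 and 6.21 on high-dose RE against 6.61 and 9.51 on water with TST. Without the 2 high arrays the medians were -0.005 for the low dose and -0.105 for the high dose, 0 of 9 passed at either dose by limma, against 3.04% and 2.81% of all rows, and Zic5 was at -0.43 for the high dose. Without water with TST replicate 1 alone, 9 of 9 passed at each dose, with 17.0% of all rows for the low dose and 17.0% for the high dose, which likewise restates that choice. Without water with TST replicate 2 alone, 0 of 9 passed, against 3.49% for the low dose and 3.09% for the high dose. By limma's adjusted p, 0 of the 22206 rows passed in any of the 4 comparisons, while 425 to 787 rows had an unadjusted p under 0.05.

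The comparison of the doses with each other contains neither high array. High-dose RE minus low-dose RE was 1.305 (SE 3.13) for Gabra6, 0.50 (SE 2.50) for Cbln3, 0.43 (SE 1.38) for Zic2, 0.365 (SE 1.49) for En2 and 0.115 (SE 1.94) for Cbln1. It was -0.36 (SE 2.05) for Fat2, -0.32 (SE 0.804) for Zic5, -0.185 (SE 1.19) for Grm4 and -0.155 (SE 1.24) for Zic1. By limma, 0 of 9 passed the study's threshold, against 1.91% of all rows (0.946% higher), with unadjusted p between 0.687 and 0.954 and an adjusted p = 1. One-way analysis of variance on the 4 RE arrays also called 0 of 9. Gabra6 was at 7.64 and 5.14 on high-dose RE and at 5.48 and 4.69 on low-dose RE, so that the pairs overlap. These SEs take their spread from all 4 groups, in which the water pairs differ by several log2 units, and they limit what a difference between doses could show.

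**Figure D4:**
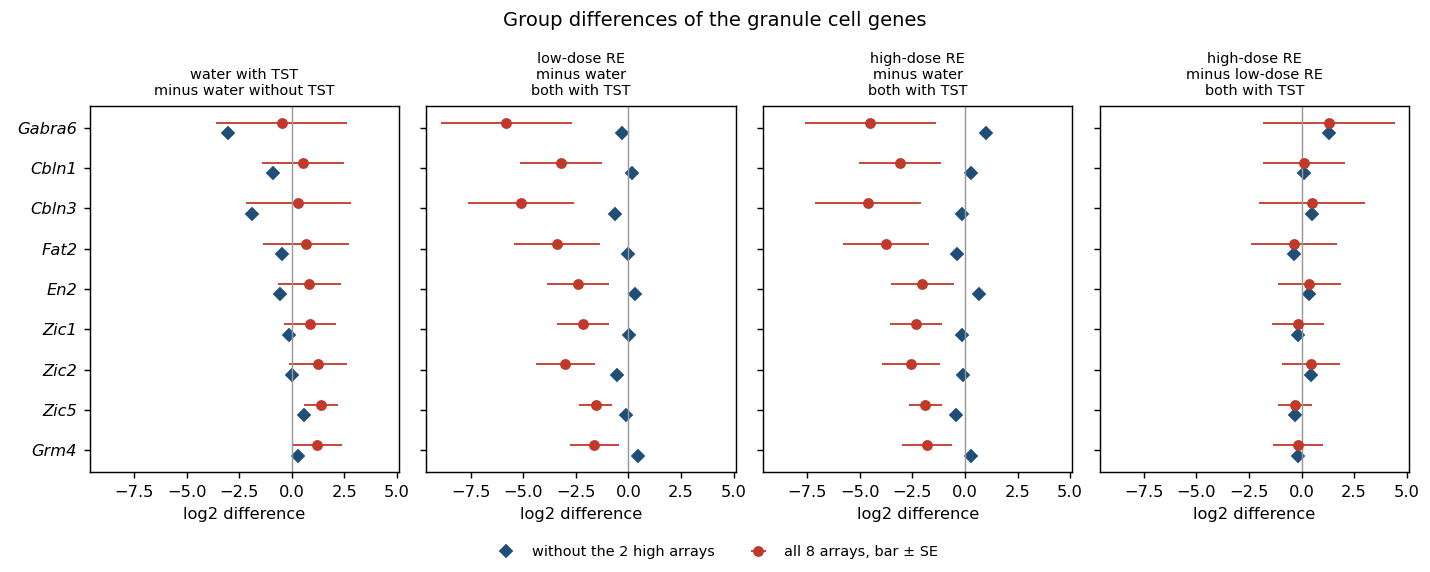
Log2 difference between group means for each of the 9 genes (rows) in the 4 comparisons (panels); red circles with bars are the estimate and SE from all 8 arrays, and blue diamonds the estimate without the 2 high arrays. Both RE doses are below water with TST for all 9 genes with all arrays (medians -2.99 and -2.56) and near 0 in the median without the 2 high arrays (-0.005 and -0.105).

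By group, the order of the mean levels therefore followed the arrays. For Gabra6 the means were 10.89 on water with TST, 5.09 on low-dose RE, 6.39 on high-dose RE and 11.37 on water without TST. The arrays of both water groups overlapped, and so did those of the RE groups. For Cbln1 the arrays overlapped likewise. Its means were 13.04 on water with TST, 9.83 on low-dose RE, 9.95 on high-dose RE and 12.49 on water without TST. The order of the water groups was thus the reverse of that for Gabra6.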

How the data were processed

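Each of 8 brain RNA samples was hybridised to its own Clariom S array. Per the submitters' processing notes and the series' design text, the authors used Transcriptome Analysis Console 4.0.1 for RMA normalization. What they deposited are log2 values with 2 decimals, used here unaltered. There is no detection call, and precision is limited by how few arrays there are. Rows were named from the platform annotation: 19572 of 22206 had 1 symbol, 0 several and 2634 none, and each gene took the row of highest mean. The array's genome build is not given in the sources used.

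limma 3.58.1 in R 4.3.3 was fitted to all rows with group means over all 8 arrays (4 residual degrees of freedom, a prior of 4.30), with two-sided p-values adjusted over all rows by Benjamini-Hochberg. The code was tested on simulated data. Tried as alternatives were blocking on replicate number, fitting only the 4 arrays compared, a prior with trend and robust estimation, no dim rows, quantile normalization, one-way analysis of variance, leaving out arrays, and other bases for the excess. Leaving out both high arrays was added after the data were seen. The members, gene lists and rules were chosen with earlier results of these data known. All 9 members are named; other genes come from the lists, plus the 10 of most like pattern.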

Additional observations from a re-analysis of the deposited data

How the results depend on the processing

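The log2 step between the 2 high arrays does not use the other 6, so no choice of base bears on it. The linear ratio does depend on the base. For Zic5 it was 8.61 with the base subtracted and 4.72 without. Taking the lowest of the other 6 as the base gave a median excess of 5.93 and 3.46 in place of 4.96 and 2.61. The linear excess against the base was used for the ratio only. For TST, the median difference moved by over 1.5 times or turned with each of the 4 water arrays left out, to -0.465 without water without TST replicate 2 and 2.465 without its replicate 1. With each array left out in turn, the number of members past the study's threshold ran from 0 to 9 in the TST, low-dose and high-dose comparisons. It was 9 in each without water with TST replicate 1, where the array that chose the members stands alone for its group (16.7%, 17.0% and 17.0% of all rows passed), and 2 for the TST comparison without replicate 2 (3.29%). The median difference ran from -1.855 to 3.70 for TST, -5.445 to -0.005 for the low dose and -5.015 to -0.105 for the high dose. Without both high arrays the median difference was -0.46 for TST, -0.005 for the low dose and -0.105 for the high dose. The single high-dose call, Zic5, was lost (0 members) in the fit of the 4 arrays compared, with trend and robust estimation, without dim rows, in the analysis of variance, and without any 1 array other than water with TST replicate 1. Of the dose differences, 4 turned in sign when 1 RE array was left out: Fat2 (-0.965 to 0.245), Zic2 (-0.055 to 0.915), Cbln1 (-0.06 to 0.29) and Cbln3 (-0.14 to 1.14). The labels do not say that replicate numbers pair the samples, and deviations of same-numbered arrays correlated at -0.293 to 0.169 over the group pairs; with the number as a replicate block, 0 members passed for the high dose and the other counts did not change. The cause of these changes was not tested. The number of arrays limits the precision.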
